A study of Homo sapiens with 28 samples.

Results

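The human zinc finger genes with ZNF symbols on chromosome 19 were followed through their promoters by chromatin accessibility (ATAC-seq, in which a transposase cuts and tags open DNA). The members were all regions on chromosome 19 that the deposited annotation placed at distance 0 from a transcription start whose gene symbol was ZNF followed by digits and at most 1 letter. These were 233 regions of 213 genes, out of 3636 regions on chromosome 19 and 154985 regions on all autosomes. Of the genes, 194 had 1 region, 18 had 2 and ZNF331 had 3. The regions were 166 to 1743 bp wide with a median of 772 bp, and 219 of the 233 reached into a 5′ untranslated exon of their own gene. The rule used no measured value, but a region existed only where at least 1 of the 28 libraries had a peak.

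The libraries came from 22 established human multiple myeloma cell lines, tumor lines of antibody-secreting plasma cells, each assayed once without drug. The untreated lines were H1112, Karpas620, KMS11, KMS12BM, KMS12PE, KMS18, KMS20, KMS21BM, KMS26, KMS27, KMS28, KMS34, L363, LP1, MM1S, OCIMY5, OPM2, PCM6, PE1, RPMI8226, U266 and XG-6. Karpas620, KMS27, L363, MM1S, OPM2 and RPMI8226 had a second library after 10 µM lenalidomide, collected on day 3. Each line is a single culture of a tumor line, no line had a replicate library of the same treatment, and differences in chromosome copy number among lines are part of every value.

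Most ZNF genes on chromosome 19 encode proteins with a KRAB domain and an array of C2H2 zinc fingers, and they lie in tandem clusters that arose by gene duplication. The fingers bind specific DNA sequences, many of them in transposable elements, and the KRAB domain binds TRIM28 (KAP1), which brings the histone methyltransferase SETDB1 and heterochromatin proteins to the site. Lenalidomide is a thalidomide analogue that binds cereblon, a part of a ubiquitin ligase, and leads to the loss of the lymphoid transcription factors IKZF1 and IKZF3, which are C2H2 zinc finger proteins encoded on other chromosomes.

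Signal was given as CPM, the count in a region per 1000000 counts of that library in all regions. A promoter was called open in a library where at least 1 peak of that library lay in the region, closed where there was no peak and under 2 CPM, and weak otherwise. The untreated libraries held 1599857 to 5564534 counts (median 2239820) and the lenalidomide libraries 2168680 to 4248017. A count of 3, the limit that a count of 0 allows, corresponded to 0.539 to 1.88 CPM in the untreated libraries, for counting error only, so a closed call means little signal at this depth and not its absence. A promoter open in some cells of a culture and one weakly open in all of them cannot be told apart in these bulk libraries. KMS34 and PE1 stood apart from the other pairs of lines. Their profiles correlated with r = 0.902 over all regions, against at most 0.786 for any other pair of untreated libraries, and over the members the open call was equal in both at 86.3% of members, with no promoter open in one and closed in the other. The labels give them as separate lines and are followed here, but whether they are related or 1 of them is mislabelled cannot be told from these files. As a check of the label, regions at the starts of the plasma cell genes SDC1, PRDM1, CD38 and TNFRSF17 were open in 21 to 22 of the 22 lines, XBP1 and IRF4 in 18, MZB1 in 20 and IGJ in 3. Of the genes chosen to mark other cells, CD3E was open in 1 line, EPCAM in 9 and the collagen gene COL1A1 in 21, and CD3D, CD14, LYZ and PECAM1 had no region at a start.

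Upstream sequences of 6 promoters are printed because they set promoters of like sequence beside each other that were open in different numbers of lines, together with a pair of unrelated promoters. Each is 250 bases, 5′ to 3′ on the strand of the gene, from GRCh37, free of annotated exons and with CG dinucleotides in capitals. ZNF574 (chr19:42580068-42580317, plus strand) was open in 22 lines and ZNF471 (chr19:57018969-57019218, plus strand) in 6. ZNF208 (chr19:22193752-22194001, minus strand) was open in 6 lines and ZNF492 (chr19:22816876-22817125, plus strand) in 4. ZNF724P (chr19:23433197-23433446, minus strand) was open in 22 and ZNF91 (chr19:23578274-23578523, minus strand) in 20.
ZNF574: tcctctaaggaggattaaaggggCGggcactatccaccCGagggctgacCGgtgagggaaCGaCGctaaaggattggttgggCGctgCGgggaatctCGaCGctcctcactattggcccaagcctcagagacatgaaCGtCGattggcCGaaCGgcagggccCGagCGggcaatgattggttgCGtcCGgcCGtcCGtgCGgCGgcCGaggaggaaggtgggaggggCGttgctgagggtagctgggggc
ZNF471: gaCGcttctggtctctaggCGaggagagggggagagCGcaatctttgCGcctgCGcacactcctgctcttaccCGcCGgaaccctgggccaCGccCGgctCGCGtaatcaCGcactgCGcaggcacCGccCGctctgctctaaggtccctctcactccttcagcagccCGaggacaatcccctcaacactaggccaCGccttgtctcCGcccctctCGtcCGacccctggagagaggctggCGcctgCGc
ZNF208: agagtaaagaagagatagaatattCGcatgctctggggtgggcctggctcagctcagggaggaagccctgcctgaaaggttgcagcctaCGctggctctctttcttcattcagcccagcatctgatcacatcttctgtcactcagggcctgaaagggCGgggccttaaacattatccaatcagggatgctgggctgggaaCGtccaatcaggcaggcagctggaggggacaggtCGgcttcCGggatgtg
ZNF492: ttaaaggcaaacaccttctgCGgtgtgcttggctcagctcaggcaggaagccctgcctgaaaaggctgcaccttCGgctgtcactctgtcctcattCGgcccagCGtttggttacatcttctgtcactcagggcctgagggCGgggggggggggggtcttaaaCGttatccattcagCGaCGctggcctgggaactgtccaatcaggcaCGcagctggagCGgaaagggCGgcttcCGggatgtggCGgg
ZNF724P: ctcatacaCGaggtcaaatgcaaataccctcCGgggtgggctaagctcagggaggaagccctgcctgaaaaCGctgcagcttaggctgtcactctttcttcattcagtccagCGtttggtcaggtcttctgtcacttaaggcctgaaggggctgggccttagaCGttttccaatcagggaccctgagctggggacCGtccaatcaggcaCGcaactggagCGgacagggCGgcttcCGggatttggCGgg
ZNF91: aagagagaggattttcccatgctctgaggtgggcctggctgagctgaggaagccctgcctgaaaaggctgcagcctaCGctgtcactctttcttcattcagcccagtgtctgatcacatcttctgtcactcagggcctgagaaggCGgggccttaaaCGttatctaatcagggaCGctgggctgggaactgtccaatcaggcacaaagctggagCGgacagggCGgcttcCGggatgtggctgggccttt
ZNF208 and ZNF91 were 82.9% identical over the aligned columns, and ZNF208 and ZNF724P 76.7%. ZNF492 was 77.6% identical to ZNF724P. ZNF574 and ZNF471 were 45.4% to 53.3% identical to each of the other 4 sequences and 48.5% to each other. ZNF574 held 23 CG dinucleotides and ZNF471 22, although the first was open in every untreated line and the second was closed in 14. ZNF208 held 6, ZNF91 7, ZNF724P 11 and ZNF492 13.

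Across the 22 untreated lines the zinc finger promoters were mostly neither constantly open nor constantly silent. Of 5126 calls, 3240 (63.2%) were open, 696 (13.6%) weak and 1190 (23.2%) closed. By comparison, 61.4% of the calls of the 914 other promoter regions on chromosome 19 were open and 18.9% closed. The calls were spread over the lines differently. Only 40 members (17.2%) were open in all 22 lines, against 26.6% of the other chromosome 19 promoters, 29.6% of the 17779 other autosomal promoters and 39.9% of the 223 ZNF promoters on other chromosomes. In turn, 143 members (61.4%) were open in 3 to 19 lines, against 41.0% of the other chromosome 19 promoters and 40.1% of the other autosomal promoters. No test was made of these shares, since neighbouring promoters are not independent.

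**Figure D1:**
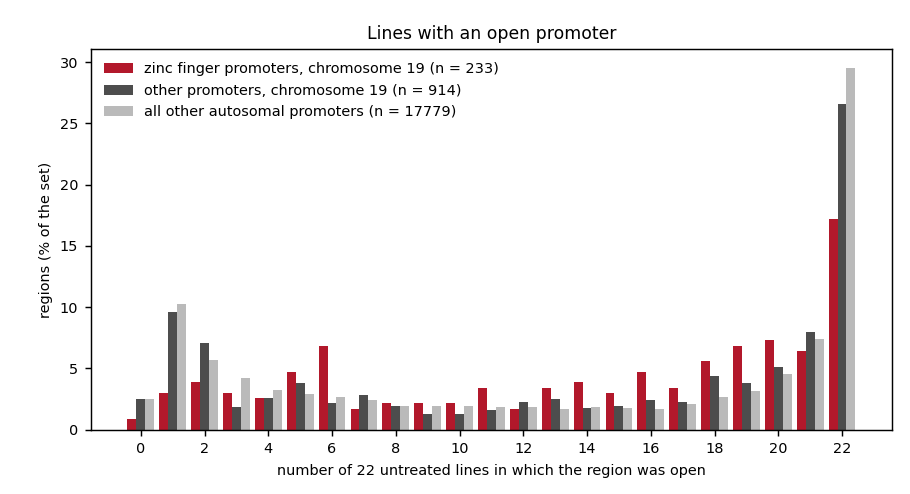
The horizontal axis gives the number of the 22 untreated lines in which a region was open and the vertical axis the percent of regions of each set. Red bars are the 233 chromosome 19 zinc finger promoters, dark grey bars the other chromosome 19 promoters and light grey bars all other autosomal promoters, and the red bar at 22 lines (17.2%) lies below both grey bars.

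In all, 151 members (64.8%) were open in at least 1 line and closed in at least 1 other, against 39.4% of the other chromosome 19 promoters and 46.5% of the other autosomal promoters. In particular, 103 members had more than 20 CPM in a line while they were closed in another, and 94 had 0 counts in at least 1 line. The counts of 103 and 94 were not set beside those of the other promoters. The median SD of log2(CPM + 1) over the lines was 1.00 for the members, 0.617 for the other chromosome 19 promoters and 0.707 for the other autosomal promoters. Among promoters of like mean signal, at 10 to 20 CPM, 52 of 83 members (62.7%) were closed in at least 1 line, against 20.4% on the rest of chromosome 19 and 44.7% of the other autosomal promoters. At 20 to 40 CPM the shares were 25.6%, 6.98% and 16.5%. At 5 to 10 CPM they were 85.7%, 67.4% and 85.9%, so the members were level with the other autosomal promoters there, and above 40 CPM they were 0% of 10 members, 1.68% and 4.93%. Taken by gene, 40 of the 213 genes had an open region in every line and 131 had all their regions closed in at least 1. Without PE1 the counts were 40 members open in all lines and 151 closed in some and open in others.

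The number of open members differed widely between lines. U266 had 208 open and 17 closed members, and KMS20 had 193 open, KMS12BM 182 and KMS12PE 180. At the other end stood KMS11 with 115 open, XG-6 with 109 and KMS26 with 100. The median line had 142 open members (SD 27.2, n = 22). OCIMY5 had the most closed members, 99, although its total of 3392407 counts was above the median. U266 thus kept nearly every zinc finger promoter open, and OCIMY5 lacked signal at a large share of them. Set beside the other chromosome 19 promoters of the same library, which share its depth, the open share of members was 14.3 percentage points lower in OCIMY5, 13.6 lower in L363 and 10.6 lower in Karpas620. It was 17.6 points higher in KMS12PE, 11.9 higher in U266 and 11.2 higher in KMS21BM. The open share of members was below that of the other promoters in 8 of the 22 lines.

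**Figure D2:**
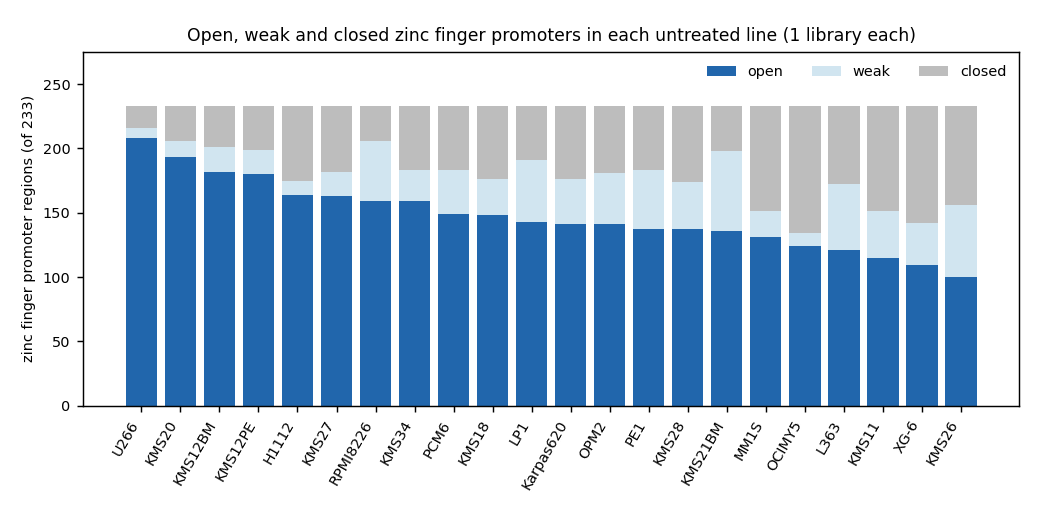
Each bar is 1 untreated line (1 library) and shows how many of the 233 zinc finger promoter regions were open, weak and closed, with lines in order of open members. U266 has the most open members (208) and KMS26 the fewest (100), and OCIMY5 has the tallest closed segment (99).

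**Figure D3:**
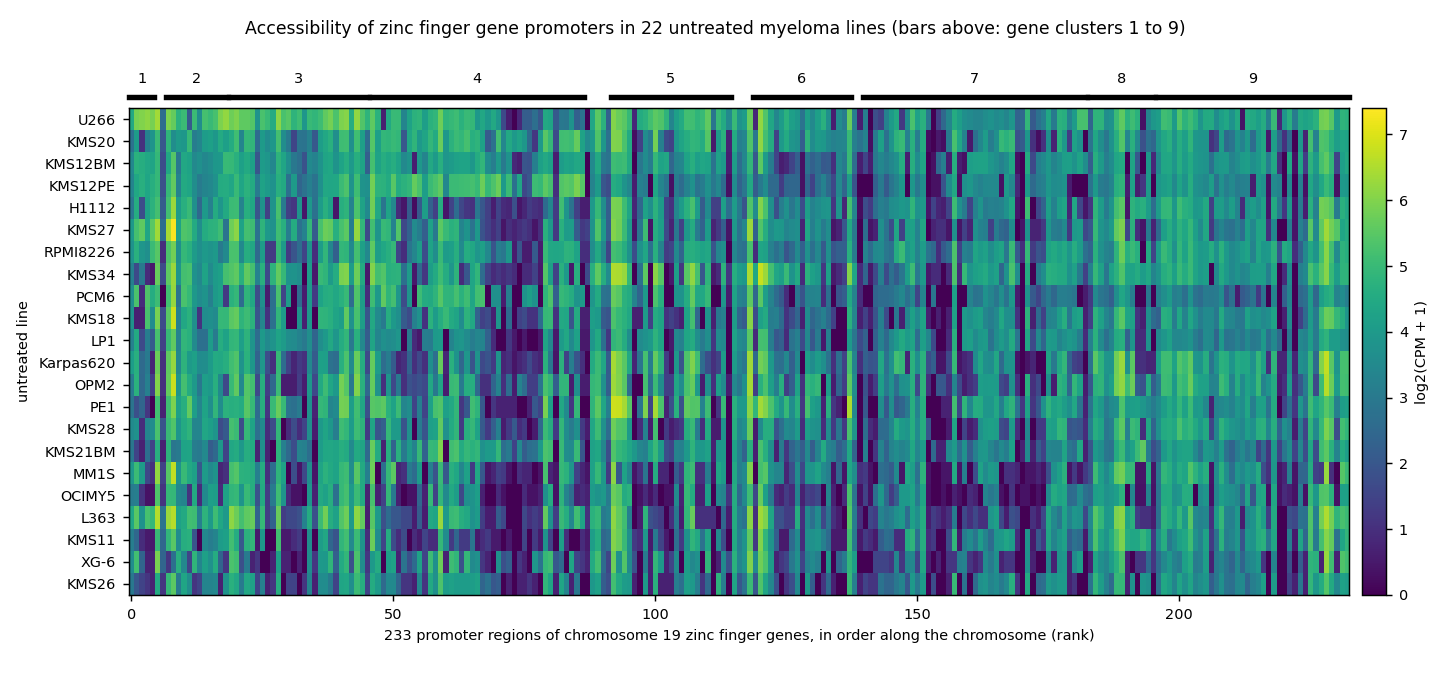
Rows are the 22 untreated lines, in order of open members, and columns the 233 members in order along chromosome 19. Color gives log2(CPM + 1), and the bars above mark gene clusters 1 to 9. Dark stretches in cluster 4 and cluster 7 cover several neighbouring promoters in some lines and not in others.

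The 40 promoters open in all 22 lines lay on both arms, 12 of them in cluster 9 at the end of the long arm and 9 in cluster 3, while clusters 1 and 2 held 0 (clusters are runs of members on the chromosome, described with the silent stretches). They were ZNF557, ZNF653, ZNF627, ZNF823, the first ZNF763 region, ZNF136, ZNF44, ZNF799, ZNF443, ZNF564, ZNF101, ZNF430, ZNF724P, ZNF507, ZNF181, ZNF565, ZNF260, the second ZNF585B region, ZNF527, ZNF546, ZNF574, ZNF428, ZNF180, ZNF766, ZNF761, ZNF865, ZNF787, ZNF444, ZNF805, ZNF543, ZNF304, ZNF548, ZNF749, ZNF773, ZNF416, ZNF417, ZNF274, ZNF837, ZNF324B and ZNF324. Per kb of region, the highest mean levels over the lines were those of ZNF574 (63.0 CPM per kb), ZNF558 (56.1), ZNF565 (55.7), ZNF444 (52.1), ZNF837 (49.6) and ZNF564 (47.6). ZNF574 (chr19:42579732-42580557) ranged from 21.1 CPM in KMS12PE to 87.0 in KMS34, with a median of 48.7. All 22 of its values were above 20 CPM. ZNF444, a SCAN domain protein without KRAB, ranged from 19.99 CPM in PCM6 to 75.3 in Karpas620, with a median of 42.7. ZNF274, which binds the 3′ ends of other zinc finger genes and recruits SETDB1 there, ranged from 15.7 CPM in KMS18 to 43.2 in KMS27, with a median of 27.6. ZNF558 was the exception among the highest 6, open in 20 lines and weak in KMS21BM and XG-6. It ranged from 5.61 CPM in XG-6 to 161 in KMS27, and its region overlapped 3 annotated genes, so its signal cannot be assigned to ZNF558 alone.

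A further 32 members (13.7%) were open in 20 or 21 lines, near the 13.1% of the other chromosome 19 promoters and 12.0% of the other autosomal promoters. Of these 32 members, 10 were closed in every remaining line. ZNF414 (chr19:8578453-8579376) had a median of 34.1 CPM and was closed only in XG-6, at 1.25 CPM. ZNF584 had a median of 32.8 CPM and was closed only in MM1S, at 1.03 CPM. ZNF497 was closed in MM1S and XG-6 and had a median of 34.1 CPM. These promoters were strong in nearly all lines and close to the counting limit in 1 or 2. ZNF441 and ZNF583 were each closed only in XG-6, at 0.624 CPM and 0 counts, and ZNF850 only in OCIMY5, at 0.884 CPM. ZNF431 was closed in H1112 and KMS11. ZNF91, which represses SVA retrotransposons, was closed in KMS11 and MM1S and reached 39.1 CPM in PCM6, with a median of 19.5. ZNF93, which represses LINE-1 elements, was open in 15 lines and weak in 7, from 2.09 CPM in OPM2 to 45.3 in MM1S.

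The 12 members that varied most, by the SD of log2(CPM + 1) over the 22 lines, were ZNF77, ZNF667, ZNF582, ZNF471, ZNF714, the second ZNF763 region, ZNF506, ZNF57, ZNF829, ZNF682, ZNF826P and the first ZNF254 region. ZNF77 (chr19:2944692-2945567, SD 2.02) was open in 11 lines, weak in LP1 and closed in 10. It ranged from 0 counts in PE1 to 58.0 CPM in U266, with 44.5 CPM in KMS27, 32.1 in RPMI8226 and 29.6 in L363. Its lines fell into high and low values with only LP1, at 3.47 CPM, between 1.79 and 11.1 CPM. ZNF57, its neighbour in the same cluster, was closed in 6 lines, and all of these (KMS11, KMS26, KMS34, OCIMY5, PE1 and XG-6) were closed at ZNF77 as well.

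ZNF582, ZNF667 and ZNF471, all known as genes whose promoters are methylated in several kinds of carcinoma, lie in cluster 8 on the long arm. DNA methylation was not measured here. ZNF583, which lies between ZNF582 and ZNF667, was open in 21 lines. ZNF667 (chr19:56988524-56989724) was open in 9 lines and closed in 11, from 0 counts to 32.1 CPM in KMS21BM, with a median of 2.34. ZNF471 (chr19:57018855-57019639) was open only in KMS21BM (47.6 CPM), KMS11 (28), H1112 (24.3), KMS34 (16), PE1 (13.8) and KMS26 (13.4). The other 16 lines lay between 0 counts and 2.61 CPM, so no line lay between 2.61 and 13.4 CPM. ZNF582 was open in 14 lines and closed in H1112, KMS12BM, KMS12PE, KMS26, OCIMY5 and XG-6, with a range of 0 counts to 33.4 CPM in OPM2. H1112 and KMS26 were thus open at ZNF471 and closed at ZNF582. The pseudogene ZNF826P was open in KMS12PE (49.4 CPM), KMS18, KMS20, KMS27, RPMI8226 and U266 and closed in 12 lines.

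**Figure D4:**
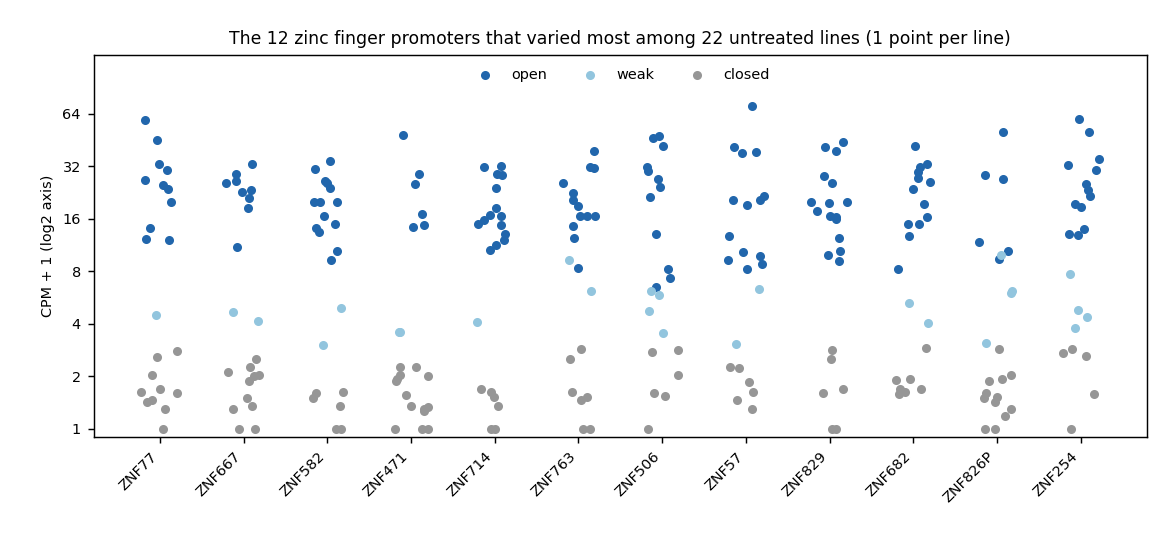
Each point is 1 untreated line at 1 of the 12 most variable members, on a log2 axis of CPM + 1, colored by the call (open, weak or closed). In every column the points spread from near 1, that is near 0 CPM, to over 30, and few points lie between the closed and the open values.

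At the other end, 16 members (6.87%) were open in only 1 or 2 lines. This was a smaller share than the 16.7% of the other chromosome 19 promoters and 15.9% of the other autosomal promoters. ZNF577 and ZNF880 (0.858% of members) were open in no untreated line, against 2.52% and 2.50% of these 2 sets. ZNF577 (chr19:52390916-52391523) was closed in 19 lines and weak in Karpas620, L363 and RPMI8226, with a highest value of 5.19 CPM in RPMI8226. It had called peaks in 2 of the 6 lenalidomide libraries. ZNF135 and the second ZNF702P region were open only in U266, at 7.38 and 4.65 CPM. ZNF114 and ZNF536 were open only in KMS20, at 6.02 and 10.5 CPM; ZNF536 is known as a regulator of neuronal differentiation. ZNF420, a KRAB protein known to bind p53, was open only in U266, at 9.02 CPM. Its promoter was closed in 19 lines. The second ZNF573 region was open in H1112 and U266 and reached 10.1 CPM, ZNF610 was open in LP1 and U266, and ZNF725P in RPMI8226 and U266 with 19.8 CPM in RPMI8226. ZNF112 was open in KMS20 and KMS21BM and the second ZNF98 region in KMS12PE and KMS20. U266 and KMS20, the lines with the most open members, thus carried several of the promoters that were closed nearly everywhere else. The first ZNF575 region was called open in H1112 and KMS34 only, yet its highest value was 28.8 CPM in PE1, where it held no called peak although 46 counts fell in it, and PE1 had the fewest counts of the untreated libraries.

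The 19 genes with several regions did not act as units. In 9 of them the regions differed by at least 10 lines in how often they were open. ZNF331, an imprinted gene, had a first region (chr19:54023854-54024531) open in 16 lines, a second (chr19:54040620-54041655) open in 11 and the third (chr19:54057477-54058348) open in 3. In U266 the 3 regions had 15.9, 36.9 and 37.2 CPM, and in OPM2 they had 28.7, 18.8 and 0.522 CPM. The third region was at or below 5.67 CPM in all lines other than KMS12BM (11.3 CPM) and U266. The second ZNF529 region, which is also the annotated start of ZNF382, was open in KMS21BM and PCM6 only. The annotation holds 246 protein-coding ZNF genes on chromosome 19, and 207 of them had a member region. Of the 39 without, 35 had a region within 1 kb of a start that did not meet the rule under their own symbol. For ZNF382, ZNF700, ZNF345, ZNF383 and ZNF146 that region carried the symbol of a neighbouring ZNF gene, and ZNF560, ZNF541, ZNF677 and ZNF154 had no region.

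Runs of members with neighbours within 500 kb formed 9 clusters of at least 5 members, and 13 members lay outside them. The share of open calls was highest in cluster 2 (ZNF414 to ZNF846, 12 members), at 83.7%. It was lowest in cluster 7 (ZNF175 to ZNF331, 43 members, chr19:52074181-54058348), at 50.7%, where 37 members were closed in at least 1 line and 2 were open in all 22. Cluster 4 (ZNF101 to ZNF254, 41 members, chr19:19778874-24270358) was open in 56.8% of calls and closed in 30.3%. Cluster 9 at the end of the long arm (ZNF264 to ZNF324, 37 members) had 77.6% open calls and 12 members open in all lines. The remaining clusters lay between 56.2% (cluster 6, ZNF575 to ZNF180) and 71.5% (cluster 3, ZNF653 to ZNF490). Other promoters within the same spans were open in 37.7% of calls in cluster 7 (10 regions) and 35.1% in cluster 4 (11 regions), below the members of both. In cluster 9 they were open in 83.7% (12 regions) and in cluster 2 in 25% (2 regions). The lines with many open members were not the same in each cluster. Cluster 4 had 39 of 41 members open in KMS12PE and 8 in KMS11, and cluster 7 had 36 of 43 open in U266 and 13 in KMS26. The member open in the fewest lines was ZNF556 in cluster 1 (9 lines), ZNF426 in cluster 2 (15), ZNF625 in cluster 3 (4) and ZNF579 in cluster 8 (5).

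The longest silent stretch lay in cluster 4. From the second ZNF43 region to ZNF730 (chr19:22034511-23300222, 1266 kb), 11 regions of 10 genes, among them ZNF208, ZNF257, ZNF492 and ZNF98, were all closed in KMS11, KMS27, KMS34, MM1S and OCIMY5, and none was open in 10 of the 22 lines. In 6 lines at least 6 of the 11 were open, namely KMS12PE (10), KMS20 (9), KMS12BM (7), KMS21BM (6), PCM6 (6) and U266 (6). The summed signal of the 11 regions was 3.24 CPM in OCIMY5 and 261 CPM in KMS12PE. It was at least 68.6 CPM in the 6 lines with 6 or more open regions and at most 16.5 CPM in the 10 with none. The 6 lines with 1 to 4 open regions lay between, from 25.0 CPM in Karpas620 to 49.6 in RPMI8226. The lines were grouped by calls of the same regions, so this order is built into the grouping. The stretch was chosen after its values were seen and is described without a test. The first ZNF43 region (chr19:22018319-22019369), directly beside the stretch, was open in the same 6 lines and in KMS34, LP1 and RPMI8226. It ranged from 0.590 CPM in OCIMY5 to 52.7 CPM in KMS12PE, and the closed run took it in as well in OCIMY5 and KMS11. The next region on that side, ZNF100, was open in 19 lines and closed in KMS11, and ZNF724P, 132 kb beyond the other end, was open in all 22 with 5.03 to 57.5 CPM. ZNF208 itself ranged from 0 counts in OCIMY5 and XG-6 to 38.9 CPM in KMS12PE, with 21.3 in U266 and 15.5 in KMS21BM. Of the 31-base words in its region, 48.5% occurred more than once on chromosome 19, so its count is uncertain. Other chromosomes were not searched for these words. The highest such share among the members was 53.3%, at ZNF28, and ZNF492 had 10.8%.

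Some closed runs held no counts at all. In KMS12PE 5 consecutive regions that include all 3 ZNF331 regions (chr19:54023854-54067334) had 0 counts, where the mean of the other lines would have given 108. In PCM6 6 consecutive regions around ZNF667 and ZNF471 (chr19:56988096-57079334) had 0 counts in place of 77.8. Shorter runs of 0 counts covered ZNF611 in OCIMY5, ZNF702P and ZNF160 in L363, and ZNF439 and ZNF69 in KMS11. Loss of the DNA and closed chromatin cannot be told apart from these counts. Scaling each line by its other chromosome 19 promoters gave the same count of 151 members closed in some lines and open in others. Such scaling applies the same factor to all regions of a line and leaves 0 counts at 0. It therefore cannot detect the loss of a short stretch of DNA. Whether these promoters follow the copy number of the chromosome was not tested.

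Neighbouring members tended to vary together over the 22 lines. The median Pearson correlation of log2(CPM + 1) was 0.45 for 144 pairs of different genes within 50 kb, 0.30 for 1411 pairs at 50 to 500 kb, 0.22 for 4182 pairs at 500 kb to 5 Mb and 0.11 for 21270 pairs over 5 Mb apart. For the 21 pairs of regions of 1 gene it was 0.37. These are descriptions over the same 22 libraries, which share their depth and copy number among all pairs.

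The pattern of open zinc finger promoters was closer between libraries of a line than between lines. The untreated and the lenalidomide library of a line had equal open calls at 88% to 97% of members (median 92.7%, 6 pairs), and at most 1 member was open in one and closed in the other. Libraries of different lines had equal calls at 49.4% to 86.3% of members (median 73.4%, 230 pairs), with 0 to 84 members open in one and closed in the other (median 31). The 2 ranges did not overlap, and the highest value between lines was that of KMS34 and PE1, whose separate origin is in doubt. Without that pair the highest was 83.7%, for Karpas620 and OPM2. Closeness within a line was not particular to the members. Over all regions the 2 libraries of a line correlated with r = 0.875 to 0.927, and pairs of untreated libraries with a median of 0.661. The highest of these untreated pairs was again KMS34 and PE1, at 0.902, and the next was 0.786. KMS12BM and KMS12PE, lines known to share an origin, had equal calls at 83.7% of members and opposite calls at 16. KMS12BM had 17.1 CPM at ZNF813 and KMS12PE 0.509, and the 3 ZNF331 regions had 12.9, 18.4 and 11.3 CPM in KMS12BM and 0 counts in KMS12PE. In the other direction, ZNF826P had 0.526 CPM in KMS12BM and 49.4 in KMS12PE, and ZNF492 0.526 and 19.8. Both lines thus carried open members that the other had closed.

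GC content differed little between members that were often and rarely open, while the CG count at the region centre was highest in those open in all lines. Median GC content was 61.6% for the 40 members open in 22 lines, 58.8% for those open in 12 to 19 and 59.7% for the 18 open in 0 to 2. CG dinucleotides per 100 bp of the whole region were 6.92, 6.07 and 7.15 in these groups, whose regions differed in width. In the central 300 bases the median CG count was 26 for members open in 22 lines. It was 21 for those open in 12 to 21 lines and 20 for those open in 0 to 11. The median region width was 447 bp for the 18 members open in 0 to 2 lines and 936 bp for the 40 open in 22. In the central 300 bases of each region, searched on both strands, the ETS-type word CCGGAAG was present in 94 of 233 members (40.3%), against 16.5% of the other chromosome 19 promoters and 12.6% of all 18012 promoter regions. It was in 32.5% of the members open in 22 lines, 46.3% of those open in 12 to 21 and 36.5% of those open in 0 to 11. The capitals in the printed sequences show its CG within the word in ZNF208, ZNF492, ZNF724P and ZNF91, each of which held it once on either strand, and neither ZNF574 nor ZNF471 held it there. CCAAT was present in 47.2% of members and 29.0% of all promoter regions, the GC box GGGCGG in 61.4% and 57.0% and the CRE-type word TGACGTCA in 3.00% and 1.87%. The words were counted where they occurred and may overlap each other. Many members descend from common ancestors and share sequence, so these shares are not counts of independent promoters.

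Most of the cofactors through which KRAB proteins act were open in nearly all lines, but several were not. Of 33 listed genes other than ZNF274, 26 had a region at a start. Of these, 10 were open in all 22 lines, 17 in at least 20 and 4 in under 12. Among the other autosomal promoters 29.6% were open in all 22 lines. At least 1 line was closed at 5 of the 26, against 49.0% of the other autosomal promoters. CBX3 was open in 4 lines, MTA1 in 8, CHD4 in 11, DNMT3B in 12 and MTA3 in 13. MTA1 was closed in 5 lines. CBX3, CHD4, DNMT3B and MTA3 were closed in 0, and their remaining lines were weak. The lowest value in any untreated line was 2.95 CPM for CBX3, 10.4 for CHD4 and 3.72 for both DNMT3B and MTA3. TRIM28, the corepressor that KRAB domains bind, had 32.1 ± 12.7 CPM (SD, n = 22) and was open in all 28 libraries. SETDB1, the methyltransferase it recruits, had 31.4 ± 9.33 CPM and was likewise open in all 28. ZFP57, a KRAB protein that guards imprinted loci, was open in no untreated line and closed in 15.

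Few of the zinc finger promoters passed the test for a change with lenalidomide. In the edgeR quasi-likelihood test with the cell line as a block, 2036 of 37732 regions tested (5.40%) passed an adjusted p of 0.05, 1575 higher (4.17%) and 461 lower (1.22%) with the drug. Of the 233 members, 170 had counts enough to be tested, and 1 of them passed (0.588%), higher with lenalidomide. None was lower by edgeR, DESeq2 called none in either direction with 6 at an unadjusted p under 0.05, and 13 members had an unadjusted p under 0.05 in edgeR, 10 of them higher. The other chromosome 19 promoters were called in 8 of 694 cases. The log2 fold changes of the tested members had a median of 0.02, against -0.01 over all regions tested, and 165 of the 170 lay between -0.5 and 0.5. The 63 members not tested were mostly those seldom open, so nothing is said of their change.

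The member that passed was the first ZNF575 region (chr19:44029514-44030002), which also lies within the gene ETHE1, a mitochondrial sulfur dioxygenase, so the signal cannot be assigned to either gene. In Karpas620 it had 4.86 CPM untreated and 11.7 with lenalidomide, in KMS27 4.05 and 6.84, and in L363 1.02 and 1.38. In MM1S it had 0 counts and 4.72 CPM, in OPM2 1.57 and 6.78 CPM, and in RPMI8226 0.944 and 0.706 CPM. It was higher in 5 of the 6 lines, with a log2 fold change of 1.37 ± 0.35 (SE) and an adjusted p of 0.0153 in edgeR. The groups overlapped, and the counts behind the values were few, at most 30 in any of the 12 libraries. DESeq2 gave it no adjusted p. Without OPM2 its adjusted p was 0.0767 in edgeR, and without Karpas620, KMS27 or MM1S its counts no longer passed the filter. The second ZNF575 region, open in 21 lines, was lower in all 6 lines, with a log2 fold change of -0.33 and an adjusted p of 0.113 in edgeR.

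The next members by unadjusted p did not pass. ZNF799 had a log2 fold change of 0.35 ± 0.11 (SE) with an adjusted p of 0.0579 in edgeR. Of the 31-base words in its region, 35.3% occurred more than once on chromosome 19, and other chromosomes were not searched. ZNF564, its neighbour in cluster 3, was at 0.27 with an adjusted p of 0.0970, and ZNF442 in the same cluster at 0.51 with 0.103, both in edgeR. ZNF556 was at -0.51 with an adjusted p of 0.185 in edgeR. The cofactors gave no call among 24 tested by edgeR, with 6 at an unadjusted p under 0.05, and none by DESeq2, with 3.

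Open and closed calls seldom switched with the drug. Of 1398 pairs of calls, 74 went from not open to open with the drug and 26 from open to not open. Only 3 went from closed to open, and 0 from open to closed. These 3 were the first ZNF331 region in Karpas620 (5 and 13 counts), ZNF28 in KMS27 (5 and 12) and ZNF420 in RPMI8226 (4 and 18). In RPMI8226 28 members were gained, 0 were lost, and the untreated library held 2117764 counts against 4248017 with lenalidomide. OPM2 lost 12 and gained 4. The part of depth in these gains and losses was not tested. 80 members were open in both libraries of all 6 lines.

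**Figure D5:**
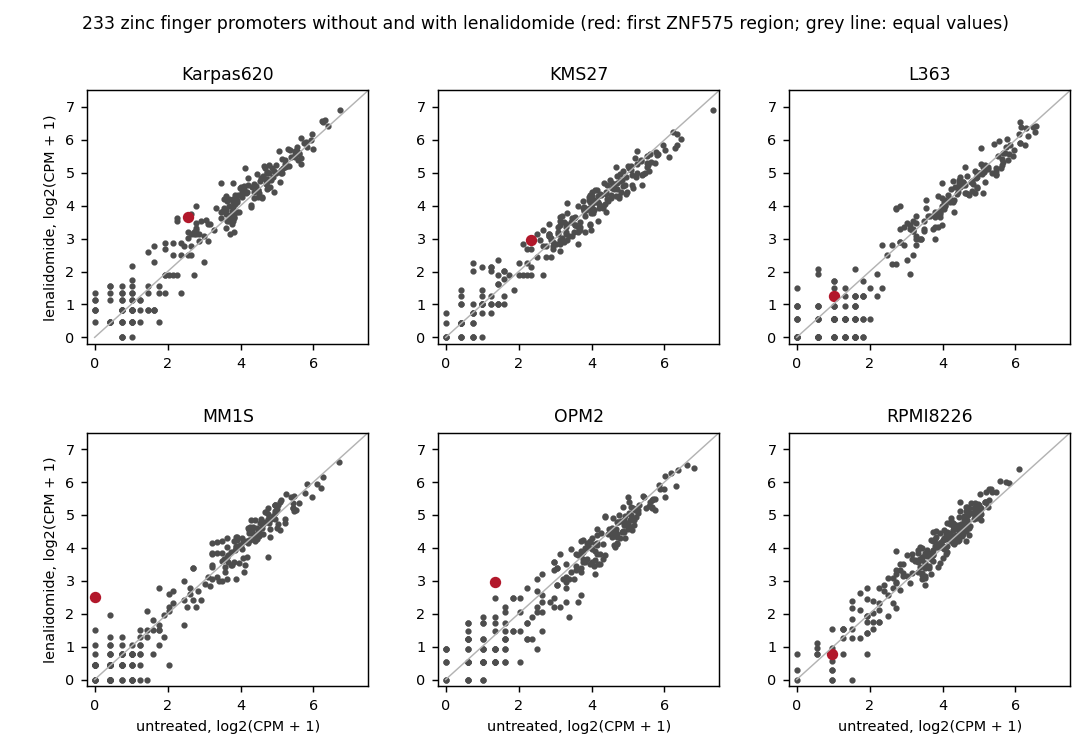
Each panel is 1 line, with log2(CPM + 1) of the untreated library on the horizontal and of the lenalidomide library on the vertical axis, 1 point for each of the 233 members. The grey line marks equal values, the points lie along it in all 6 lines, and the red point is the first ZNF575 region, above the line in 5 of 6.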

How the data were processed

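ATAC-seq libraries of 28 cell cultures (22 untreated lines and 6 lenalidomide libraries) were analysed from a table of raw counts per region, which the authors deposited unnormalized. Per the labels and the study's methods, reads were aligned with Bowtie2 2.2.6 to GRCh37, duplicates were marked with SAMtools 1.7, peaks were called in each library with MACS2 2.1.0.20151222 at q 0.01, and the peaks of all libraries were merged into 154985 regions. Whether reads or fragments were counted is not given in the sources used here. Merged regions are widest where many libraries have peaks, so the ranking of genes by level used CPM per kb, while bins of like mean signal used CPM of the whole region. A second deposited table of small whole numbers, which carries no definition, was read as the number of a library's own peaks in each region and gave the open calls. A deposited table of depth-scaled values was not used, since CPM was computed from the counts (Python 3.11.15, pandas 2.3.3, NumPy 2.4.6). The labels, not the column order, gave the groups.

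Lenalidomide was tested on the 6 pairs of libraries with edgeR 4.0.16 (R 4.3.3, limma 3.58.1): TMM factors, filterByExpr by condition, a quasi-likelihood test with cell line as a block, two-sided, and Benjamini-Hochberg adjustment over all regions tested, with DESeq2 1.42.0 as an alternative. The 2 libraries of a pair come from the same cell line, and their deviations from the group means correlated with r = 0.825 to 0.892. On simulated counts of 37732 regions for this comparison, changed regions that failed the count filter were left out of the shares. Of the changed regions that passed it, 77.9% of 86 changed by 1 on the log2 scale and 100% of 74 changed by 2 were recovered. There were 8 false calls among 149. Recovery over all changed regions was therefore lower than these shares. With 1 library per line and treatment, p-values measure the spread of the change between lines. Sequences, GC content and words came from GRCh37 with its gene annotation, and 210 of 214 member gene identifiers were found there.

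The members, the cofactor and marker lists and the tests were chosen with earlier results of these data known. Members were named by rule: the 6 highest and 6 lowest in mean CPM per kb, the 12 with the largest SD, up to 8 open in 20 or 21 lines and closed in the rest, up to 8 open in 1 or 2 lines, those passing the lenalidomide test or else the 6 with the smallest p, and the member open in the fewest lines of each cluster. Other members were named after their values were seen. The alternatives were other calls of open and closed, drawn-down counts, other scaling, filters and tools, 1 region per gene, leaving out each pair, a GC or trended offset, a fit without the block and another cluster distance. The symbols ZNF571-AS1 and ZNF816-ZNF321P did not meet the rule. Intervals and floors cover counting error only, and PCR duplicates make reads less than independent.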

Additional observations from a re-analysis of the deposited data

Results flagged for a closer look

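Of 22 groups of 6 values examined in the lenalidomide pairs, 4 had a line far from the other 5. Chance gives about 1 in 20 for independent groups. These groups share lines and promoters, so no excess over chance can be read from the count. The ZNF799 promoter had a log2 difference of -0.0794 with lenalidomide in OPM2, while the other 5 lines lay between 0.37 and 0.47. OPM2 also lost open calls at 12 members, against 0 to 4 in the other 5 lines. The ZNF556 promoter had 45.9 CPM in untreated KMS27, against 4.70 to 16.1 CPM in the other 5 untreated lines of the pairs. The same promoter had 36.9 CPM in KMS27 with lenalidomide, against 0.904 to 9.65 CPM in the others, so KMS27 stood apart in both of its libraries.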

How the results depend on the processing

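The call of an open promoter decided the level of openness. With 2 CPM in place of a called peak, the median line had 181.5 open members in place of 142 and 80 members were open in all 22 lines in place of 40, and TMM-scaled CPM gave 181.5 and 80. With counts drawn down to the smallest total the values were 177.5 and 75, when 32.2% of members and 55.9% of the other chromosome 19 promoters had at least 2 CPM in every line. The lowest open share of a cluster was then 66.9% at 2 CPM in place of 50.7%, in cluster 7 both times. The count of members open in some lines and closed in others, 151, moved to between 127 and 158 over all alternatives. Leaving out PE1, or the 5 untreated libraries of fewest counts (141 such members, 52 open in all remaining lines), was chosen after seeing the data.

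With lenalidomide the count of members called, 1, was 0 in DESeq2, 2 when low counts were kept, 3 under trended offsets and 0 with the region of highest mean count per gene, which removes the first ZNF575 region by construction. It was 0 to 2 when a pair was left out, namely 0 without Karpas620, KMS27 or MM1S and 2 without L363. It was 1 with library totals, GC offsets or a minimum of 10 counts, and under the last it was ZNF799. Without the cell line as a block, 0 members and 0 of all regions passed in edgeR, with 0 members and 440 regions at an unadjusted p under 0.05, and ZNF575 had an adjusted p near 1. The cause of these differences was not tested. ZNF799 passed in edgeR with no filter, with the minimum of 10 counts, with trended offsets and without OPM2 (adjusted p 0.0371 to 0.0449; 0.0579 as reported). No direction reversed. Depth limits closed calls in the shallowest libraries, and no line had a replicate library.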
